A study of Mus musculus with 10 samples.

Results

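Heme is built by a short chain of enzymes, and the transcripts of 8 of them, together with that of the mitochondrial iron importer Slc25a37, were followed here in cartilage of mice with and without the microRNA gene Mir324. The 9 genes, Alas1, Alas2, Alad, Uros, Urod, Cpox, Ppox, Fech and Slc25a37, were taken by symbol from the 35705 genes of the deposited table. All 9 were among the 13841 tested, which averaged 1 TPM or more (TPM, an abundance corrected for transcript length and scaled to the same total in every library). RNA was sequenced from the medial knee cartilage cap of 10 mice, 1 library per mouse, 5 of them wild-type controls and 5 Mir324-null, with no treatment. The labels give the tissue as articular cartilage and the cells as chondrocytes, and do not state strain, age, sex or the construction of the null allele. Replicates are therefore separate mice, and read depth is unknown because only TPM values were used.

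Heme synthesis starts and ends in the mitochondrion, with its middle steps in the cytosol. Its first and rate-limiting step, the joining of glycine and succinyl-CoA into aminolevulinic acid, has separate enzymes for different tissues: Alas1 serves nearly all cells and is repressed by heme, and Alas2 is specific to the erythroid lineage, where its translation is tied to iron supply. Precursors of red cells in the marrow make most of the body's heme for haemoglobin, so the later enzymes, although present in all cells, are most abundant in that lineage.

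The stretches of DNA before the start sites of 4 of these genes are shown because they differ in the factor motifs they hold. The 4 did not all vary together between mice. Alas2 with Urod, Urod with Cpox and Cpox with Ppox correlated over the mice (adjusted Pearson permutation p = 0.00173, 0.0191 and 0.0211). Alas2 with Cpox, Alas2 with Ppox and Urod with Ppox did not pass 0.05 (adjusted p = 0.0573, 0.142 and 0.0681 in that test). Sequences are from RefSeq (GRCm38.p6), read 5′ to 3′ on the gene's strand, with bases that lie in annotated exons left off. Capitals mark matches on either strand to a GATA motif (AGATAA, also with T as its first or G as its last base), to CACCC, to the E-box CACGTG or to CCAAT. Alas2 lies at chrX:150547167-150547374 (plus strand), Urod at chr4:116994414-116994663 (minus strand), Cpox at chr16:58669958-58670207 (plus strand) and Ppox at chr1:171281187-171281436 (minus strand).
Alas2: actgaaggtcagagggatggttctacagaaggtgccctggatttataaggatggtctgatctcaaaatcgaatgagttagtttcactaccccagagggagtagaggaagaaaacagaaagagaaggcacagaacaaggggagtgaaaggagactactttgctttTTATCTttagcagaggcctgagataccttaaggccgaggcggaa
Urod: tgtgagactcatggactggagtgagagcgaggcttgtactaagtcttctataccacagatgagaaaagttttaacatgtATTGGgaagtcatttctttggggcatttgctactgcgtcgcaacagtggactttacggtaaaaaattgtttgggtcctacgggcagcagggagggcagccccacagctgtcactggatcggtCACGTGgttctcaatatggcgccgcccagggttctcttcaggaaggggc
Cpox: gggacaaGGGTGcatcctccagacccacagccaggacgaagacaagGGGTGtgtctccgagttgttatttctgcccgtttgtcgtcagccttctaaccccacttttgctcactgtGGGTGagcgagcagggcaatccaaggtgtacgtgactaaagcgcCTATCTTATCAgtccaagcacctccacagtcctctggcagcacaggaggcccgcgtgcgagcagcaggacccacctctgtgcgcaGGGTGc
Ppox: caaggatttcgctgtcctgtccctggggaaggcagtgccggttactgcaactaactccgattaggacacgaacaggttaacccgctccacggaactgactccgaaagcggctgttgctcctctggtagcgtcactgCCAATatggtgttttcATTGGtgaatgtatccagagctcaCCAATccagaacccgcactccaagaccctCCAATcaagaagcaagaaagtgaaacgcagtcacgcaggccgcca

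Alas2 held 1 GATA match, starting 86 bases before its start site, and its 3 CACCC matches lie in the exon bases left off. Cpox held 2 that overlap, starting at 91 and 86 bases, beside 4 CACCC matches. Urod held an E-box at 49 bases and a CCAAT match at 171 bases. Ppox held no GATA, CACCC or E-box match but 4 CCAAT matches, starting 114, 98, 74 and 45 bases before its start site. Of the 9 genes, 7 had a promoter entry, with 10 windows in all. Within the 250 bases before a start site, GATA matches were in 3 of the 10 windows (of Alas2, Cpox and Uros) and in 26.5% of all 32841 RefSeq windows of that length. CACCC was in 5 of the 10 (of Alas1, Alas2, Alad and Cpox) against 52%, and CCAAT in 4 (of Alad, Ppox and Urod) against 33.9%. E-boxes were in 4 of the 10 (of Alad, Urod and Uros) against 6.02%. Windows of the same gene can overlap and are not independent. The motif GCATGCGC, a core of the binding motif of the respiratory factor NRF1, was in 1 of the 10 windows, of Alas1, and in 2.26% of all windows. The windows of Alas1 lie almost wholly in annotated exons and are not printed. A match describes the letters only and is no evidence that a factor binds there.

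**Figure D1:**
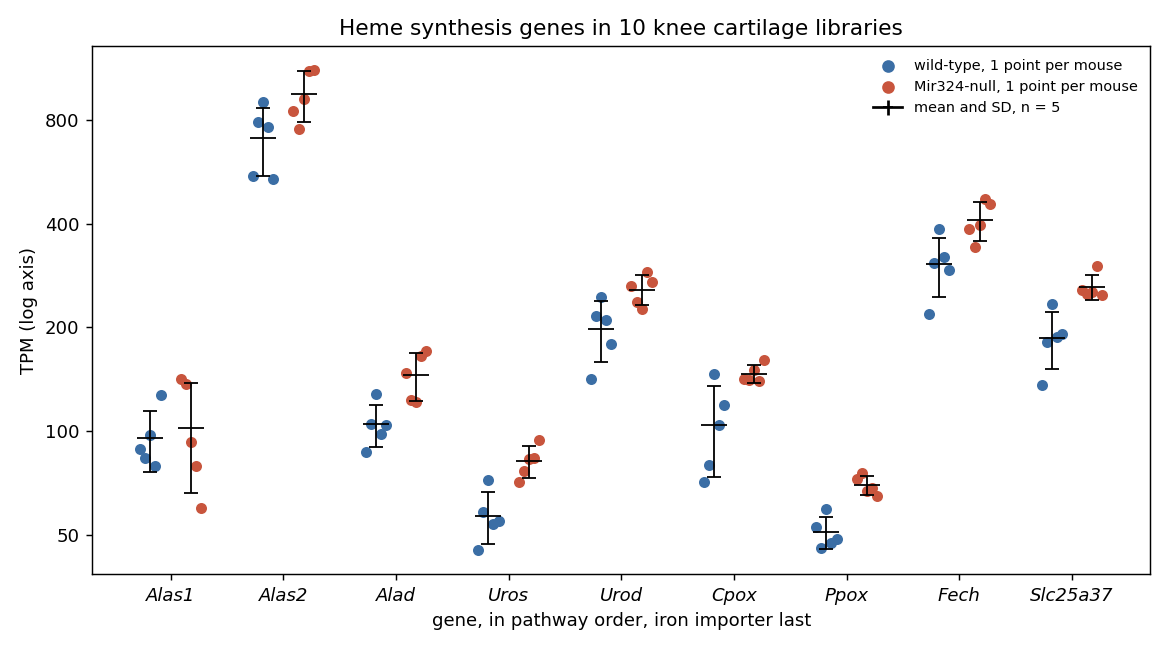
TPM (log axis) of the 9 genes, with 1 point per mouse in wild-type (blue) and Mir324-null (red) libraries and the mean with SD (n = 5). Alas2 is the most abundant gene and Ppox the least, and the points of the genotypes are fully separated for Ppox and Slc25a37.

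All 9 genes were well expressed in these libraries. Alas2 had the highest mean, 828 TPM over the 10 mice, which placed it at rank 163 of the 13841 genes tested. Fech, the last enzyme of the chain, which inserts iron into protoporphyrin, followed at 357 TPM, then Urod at 228 TPM and Slc25a37 at 224 TPM. Cpox averaged 126 TPM, Alad 125 TPM, Alas1 98.9 TPM, Uros 69.5 TPM and Ppox 60.5 TPM, and Ppox still ranked above 86.1% of the genes tested. The order was thus not that of the pathway, as the erythroid first-step enzyme stood above every later enzyme. With all transcripts of a gene summed, the lowest levels belonged to Uros and Ppox.

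Neighbours in this order were compared within each library, on log2(TPM + 1), with a two-sided exact sign-flip permutation test over the 10 mice, whose smallest possible p is 0.00195, adjusted over the 8 neighbouring pairs. Alas2 was above Fech, Fech above Urod and Slc25a37 above Cpox in 10 of 10 libraries (adjusted p = 0.00521 each in the exact permutation test), with mean log2 differences of 1.20 ± 0.14, 0.64 ± 0.10 and 0.84 ± 0.18 (SD, n = 10). Urod and Slc25a37 did not differ beyond their spread (0.03 ± 0.13, SD, n = 10, Urod higher in 6 of 10 libraries, adjusted exact permutation p = 0.547). Nor did Cpox and Alad, whose difference was -0.01 ± 0.24 (SD, n = 10, adjusted exact permutation p = 0.918). Alad above Alas1 (7 of 10 libraries, adjusted exact permutation p = 0.0781), Alas1 above Uros (8 of 10, adjusted p = 0.05) and Uros above Ppox (8 of 10, adjusted p = 0.05) did not pass the threshold of an adjusted p under 0.05. These levels sum coding and non-coding transcripts, and the order was not tested on coding transcripts alone, where it can differ. In wild-type mice the coding share of the TPM was 57.5% for Urod and 84.5% for Slc25a37. It was 72.8% for Cpox and 97.9% for Alad, and 49.3% for Alas1 and 90.6% for Uros.

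RNA of blood-forming cells was a large part of every library of this tissue labelled as cartilage, in both the erythroid and the neutrophil lineage. The 7 neutrophil markers summed to 55632 to 109003 TPM in wild-type and 54585 to 111430 TPM in null libraries. The 4 adult globin genes held 11.2% to 19.7% of the TPM in wild-type and 15.7% to 26.1% in null libraries. Of 8 erythroid marker genes (among them Slc4a1, Epb42, Rhag, Ermap and Rhd), 7 were in the table and passed the filter, and none of those 7 was at 0 in all libraries. Their summed level was 693 to 1523 TPM in wild-type and 1516 to 1889 TPM in null libraries. Of 9 cartilage markers 7 passed the filter, while Col9a1 and Matn3 stayed below it, and the summed level of the 9 was 422 to 1342 TPM in wild-type and 359 to 660 TPM in null libraries. Wild-type replicate 1 stood apart with the lowest erythroid score, 6.13 against 6.73 to 7.44 in the other libraries (mean log2(TPM + 1) of the 7 erythroid genes), and with the lowest level of 6 of the 9 genes. In bulk tissue, more cells of a type and more RNA per cell cannot be told apart.

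Between genotypes, 8 of the 9 genes were higher in null mice with an unadjusted limma p under 0.05, and Alas1 was not. Across all genes 4.28% were higher at that threshold and 7.3% were lower, the latter holding none of the 9. With Benjamini-Hochberg adjustment over all 13841 genes, 0 of the 9 and 0 genes in all (0%) had an adjusted p under 0.05 in limma. The smallest adjusted p over all genes was 0.277, and 1603 genes had an unadjusted p below 0.05. So no single gene's difference between genotypes passed correction. The median change of the 9 genes was 0.45 on the log2(TPM + 1) scale, against -0.05 over all genes tested, of which 40.0% had an estimate above 0. Complete separation of the genotypes, with every null mouse above every wild-type mouse, was seen for 2 of the 9 genes and for 0.881% of all genes. The opposite separation was seen for none of the 9 and for 1.06% of all genes. The balance of higher and lower genes over the whole table depended on the scaling, from 592 higher and 1011 lower with TPM as deposited to 875 and 888 with median ratio scaling, 884 and 929 with quantile scaling and 1218 and 578 after rescaling without the haemoglobin genes. Under each of these 3 scalings the same count of 8 of the 9 genes was higher at an unadjusted p under 0.05. Without wild-type replicate 1 or 5, or Mir324-null replicate 4 or 5, the count was 7, because the p of Alas2 then lay between 0.052 and 0.057 in limma.

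**Figure D2:**
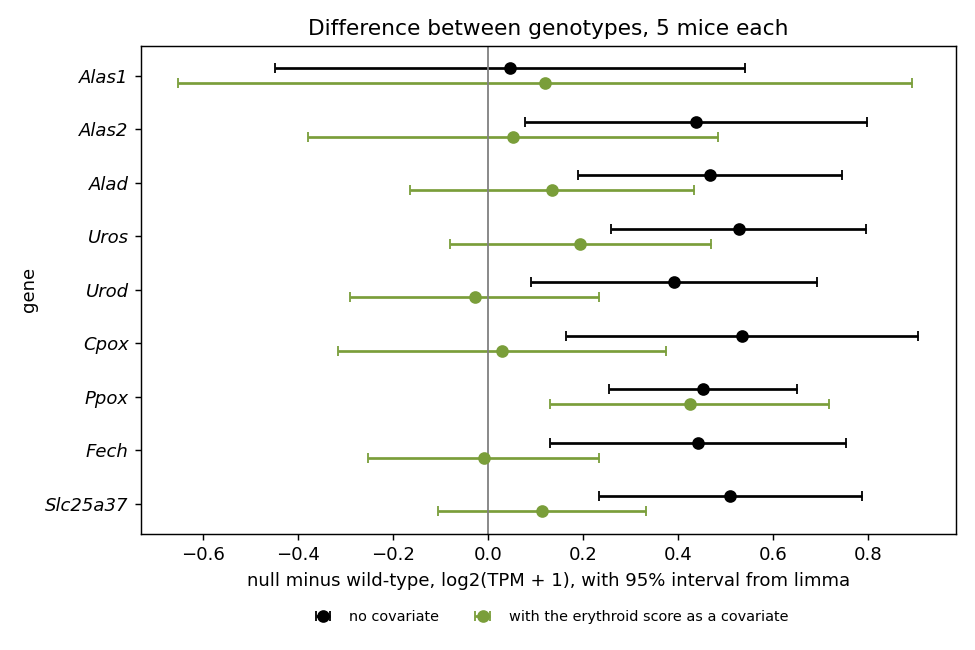
Difference between genotypes (null minus wild-type, log2(TPM + 1)) with its 95% interval from limma for each of the 9 genes, without a covariate (black) and with the erythroid score of each library as a covariate (green). Without the covariate 8 intervals lie above 0, and with it only that of Ppox does.

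The first step was split between its enzymes. Alas2 (ENSMUSG00000025270, chromosome X, 150547375 to 150570638, plus strand, GRCm38) had 548, 787, 902, 761 and 538 TPM in wild-type replicates 1 to 5 and 850, 752, 920, 1109 and 1115 TPM in null replicates 1 to 5. The genotypes overlapped, with 3 null mice above the highest wild-type mouse and wild-type replicates 1 and 5 clearly below the rest. Its mean was 707 ± 159 TPM in the controls against 949 ± 160 TPM (SD, n = 5), a ratio of 1.34. On log2(TPM + 1), the scale of all changes given here, null mice stood 0.44 higher (SE 0.164, 95% interval 0.08 to 0.80), with p = 0.0212 and adjusted p = 0.355 in limma and an exact permutation p of 0.0635, two-sided as are all such tests here. The smallest p that a split of 5 against 5 allows is 0.00794.

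Alas1 (ENSMUSG00000032786, chromosome 9, 106233455 to 106248654, minus strand) had 89.1, 83.5, 97.4, 79.5 and 128 TPM in wild-type and 142, 137, 93.1, 79.3 and 60.01 TPM in null replicates 1 to 5. The null mice surrounded the wild-type mice, holding both the highest values (replicates 1 and 2) and the lowest (replicate 5). Means were 95.5 ± 19.3 and 102 ± 36.0 TPM (SD, n = 5), and the change was 0.05 (SE 0.226, 95% interval -0.45 to 0.54, limma p = 0.843, adjusted p = 0.971, exact permutation p = 0.825). The interval is wide, so a change of the size seen for the other genes lies within it. Leaving out single mice moved the estimate from -0.09 (without null replicate 1) to 0.22 (without null replicate 5), and it was also below 0 without null replicate 2 (-0.08) or wild-type replicate 4 (-0.01). Within genotypes Alas1 varied more than any other of the 9, with a pooled SD of 0.42 on the log2 scale against a median of 0.24 over all genes tested, while Ppox varied least (0.12).

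The balance of the first-step enzymes was also compared within each library, where the library total cancels. Alas2 was 6.15, 9.42, 9.26, 9.58 and 4.21 times as abundant as Alas1 in the wild-type libraries and 5.998, 5.47, 9.89, 13.98 and 18.6 times in the null libraries. Null replicates 4 and 5 had the highest ratios and null replicates 1 and 2 were among the lower ones. The log2 ratio was 2.87 ± 0.52 in wild-type and 3.26 ± 0.76 in null mice (SD, n = 5), a difference of 0.39 that lay within the spread of the mice (exact permutation p = 0.381). It was 0.16 without null replicate 5, 0.19 without wild-type replicate 5, 0.26 without null replicate 4 and 0.60 without null replicate 2.

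**Figure D3:**
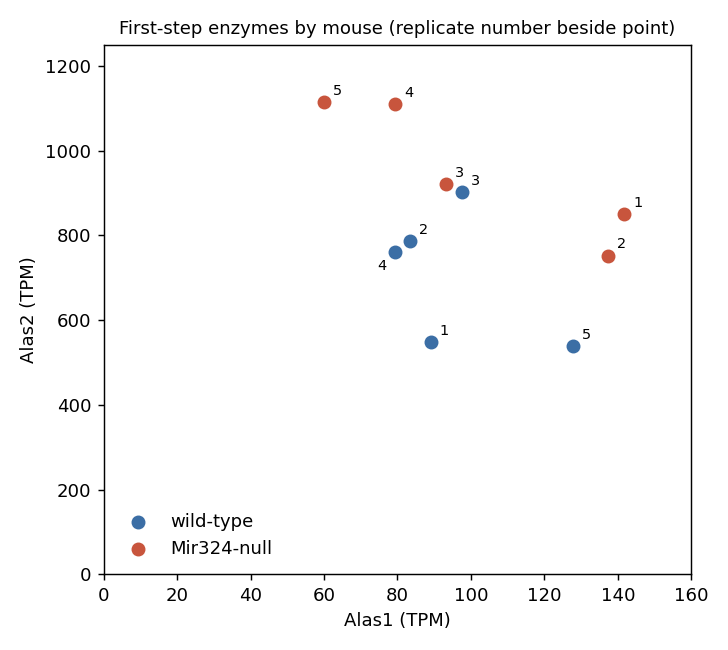
Alas2 against Alas1 in TPM, 1 point per mouse with its replicate number, wild-type in blue and Mir324-null in red. Null replicates 4 and 5 combine the highest Alas2 with low Alas1, while null replicates 1 and 2 have the highest Alas1.

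The cytosolic enzymes came next. Alad (ENSMUSG00000028393, chromosome 4, 62509169 to 62519918, minus strand), which joins aminolevulinic acid into porphobilinogen, had 87.4, 105, 128, 98.6 and 105 TPM in wild-type and 147, 123, 121, 165 and 171 TPM in null replicates 1 to 5. Only wild-type replicate 3 reached into the null range. Means were 105 ± 14.8 and 146 ± 22.8 TPM (SD, n = 5), a change of 0.47 (SE 0.127, limma p = 0.00332, adjusted p = 0.291, exact permutation p = 0.0238). Uros (ENSMUSG00000030979, chromosome 7, 133686243 to 133710072, minus strand), which closes the ring of uroporphyrinogen, had 45.3, 58.3, 72.5, 53.9 and 54.9 TPM in wild-type and 71.4, 77.0, 83.2, 83.8 and 94.5 TPM in null mice. The genotypes overlapped in a single pair, wild-type replicate 3 and null replicate 1. Means were 57.0 ± 9.94 and 82.0 ± 8.65 TPM (SD, n = 5), a change of 0.53 (SE 0.123, limma p = 0.00112, adjusted p = 0.277, exact permutation p = 0.0159). Urod (ENSMUSG00000028684, chromosome 4, 116989965 to 116994413, minus strand), which trims the side chains of that ring, had 142, 216, 246, 211 and 180 TPM in wild-type and 264, 237, 226, 289 and 271 TPM in null mice. Here too wild-type replicate 3 alone lay within the null range, above null replicates 2 and 3. Means were 199 ± 39.6 and 257 ± 25.7 TPM (SD, n = 5), a change of 0.39 (SE 0.138, limma p = 0.0155, adjusted p = 0.342, exact permutation p = 0.0238).

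The last 3 enzymes act in the mitochondrion. Cpox (ENSMUSG00000022742, chromosome 16, 58670292 to 58717636, plus strand), coproporphyrinogen oxidase, had 71.4, 79.9, 147, 105 and 120 TPM in wild-type and 142, 141, 150, 140 and 161 TPM in null replicates 1 to 5. The wild-type mice were widely spread and the null mice closely grouped, with coefficients of variation of 29.2% and 6.15%. Means were 104 ± 30.5 and 147 ± 9.04 TPM (SD, n = 5), a change of 0.53 (SE 0.170, limma p = 0.00876, adjusted p = 0.319, exact permutation p = 0.0317). Ppox (ENSMUSG00000062729, chromosome 1, 171275990 to 171281186, minus strand), protoporphyrinogen oxidase, had 53.0, 45.9, 59.6, 47.6 and 48.9 TPM in wild-type and 72.8, 75.8, 67.4, 68.6 and 65.1 TPM in null mice. All 5 null mice lay above all 5 wild-type mice. Means were 51.0 ± 5.50 and 69.9 ± 4.31 TPM (SD, n = 5), a ratio of 1.37 and a change of 0.45 (SE 0.0904, 95% interval 0.25 to 0.65). Its limma p of 0.000335 ranked 6 of the 13841 genes, with an adjusted p of 0.277, and its exact permutation p was 0.00794. Fech (ENSMUSG00000024588, chromosome 18, 64452914 to 64490251, minus strand), ferrochelatase, had 218, 307, 385, 319 and 294 TPM in wild-type and 385, 343, 395, 471 and 457 TPM in null mice. Wild-type replicate 3 lay among the null mice and the other wild-type mice below them. Means were 305 ± 59.7 and 410 ± 53.1 TPM (SD, n = 5), a change of 0.44 (SE 0.142, limma p = 0.00942, adjusted p = 0.324, exact permutation p = 0.0238).

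Iron reaches ferrochelatase through Slc25a37 (mitoferrin 1, ENSMUSG00000034248, chromosome 14, 69241848 to 69285112, minus strand), the carrier that erythroid cells use to bring iron across the inner mitochondrial membrane. It had 136, 182, 234, 188 and 191 TPM in wild-type and 257, 250.5, 254, 301 and 249 TPM in null replicates 1 to 5. The genotypes did not overlap. Means were 186 ± 34.9 and 262 ± 21.9 TPM (SD, n = 5), a ratio of 1.41 and a change of 0.51 (SE 0.127, 95% interval 0.23 to 0.79, limma p = 0.00179, adjusted p = 0.283, exact permutation p = 0.00794). Its relative Slc25a28 (mitoferrin 2), which serves other tissues, averaged 25.9 ± 6.59 TPM in the controls against 22.9 ± 2.99 TPM (SD, n = 5), a change of -0.15 with an adjusted limma p of 0.788.

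The erythroid score also differed between genotypes. It was 6.74 ± 0.38 in wild-type and 7.29 ± 0.12 in null mice (SD, n = 5), a difference of 0.56 with all 5 null mice above the wild-type mean (exact permutation p = 0.0159, 0.0317 adjusted over the 2 measures tested). The share of TPM in the 4 globin genes differed by 5.09 percentage points (exact permutation p = 0.0952, adjusted 0.0952). Both measures rest on marker genes chosen with earlier results of these data known, and the adjustment leaves out the other marker lists. Their p-values are therefore given as a description only. Of the 7 erythroid markers tested, 7 had an unadjusted limma p under 0.05 and were higher, with a median change of 0.57, and 0 passed adjustment. The share of all genes tested that was higher at that threshold was 4.28%. Over the 10 mice, 8 of the 9 genes correlated with the erythroid score at an adjusted permutation p under 0.05, by Pearson and by Spearman. The highest correlation was that of Slc25a37 (Pearson r = 0.97, permutation p = 5e-05, adjusted over 9 genes 0.00018; Spearman rho = 0.88, permutation p = 0.00162, adjusted 0.00486), and r was 0.93 without wild-type replicates 1 and 2, the libraries farthest from the median score. For Alas1 the values were r = -0.02 (permutation p = 0.967, adjusted 0.967) and rho = -0.05 (p = 0.893, adjusted 0.893), and r = -0.29 without the same libraries. After genotype means were subtracted, r was 0.95 for Slc25a37, 0.93 for Fech, 0.90 for Urod, 0.67 for Alas2 and 0.12 for Ppox. For Ppox the pooled r was 0.70 (permutation p = 0.0181, adjusted 0.0204) and rho 0.76 (p = 0.0154, adjusted 0.0231), and r was 0.82 without the same 2 libraries, so its relation to the score was not seen within genotypes.

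**Figure D4:**
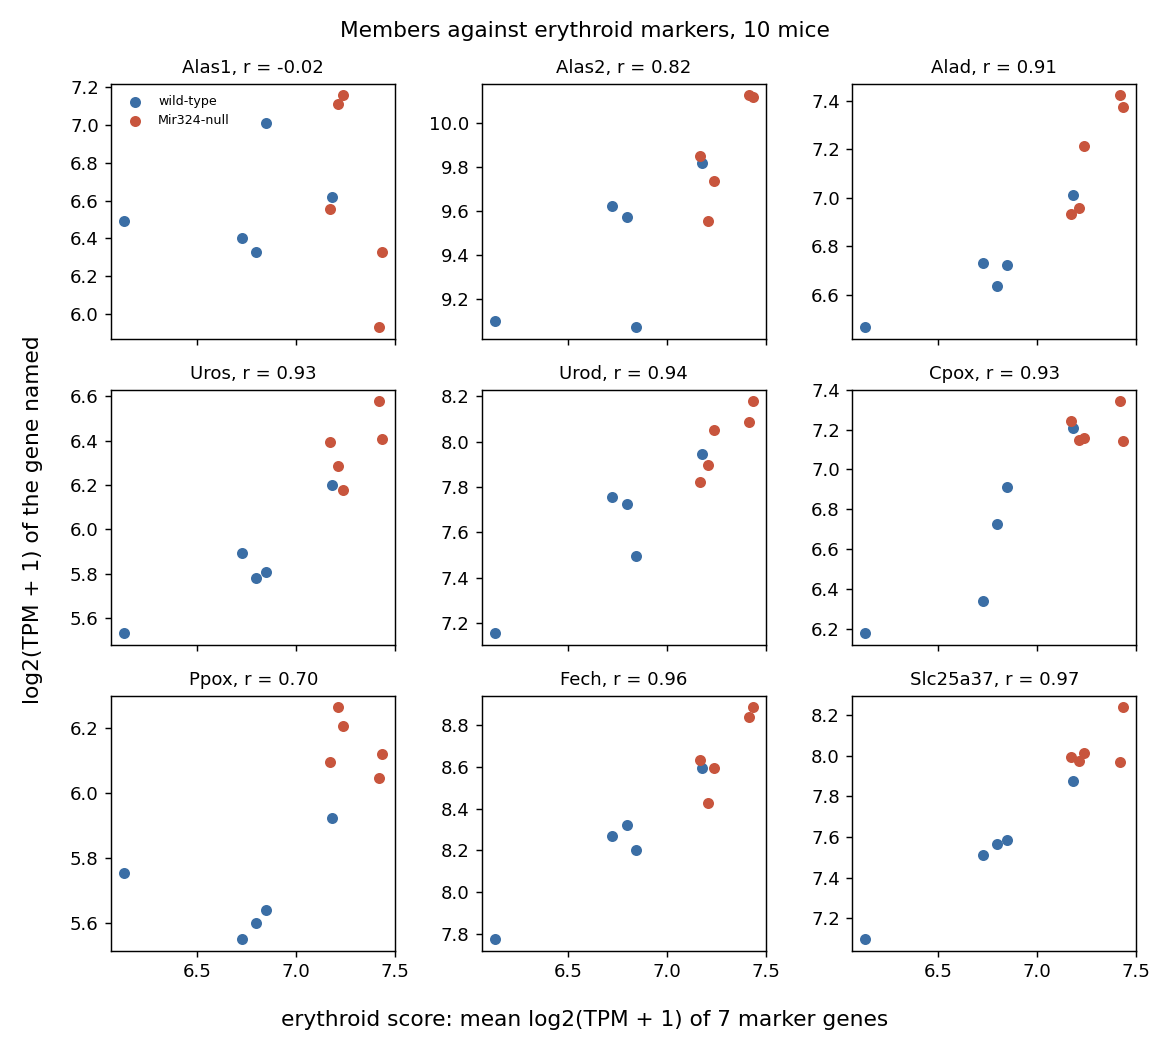
Log2(TPM + 1) of each of the 9 genes against the erythroid score (mean log2(TPM + 1) of 7 marker genes), 1 point per mouse, wild-type in blue and Mir324-null in red, with Pearson r over 10 mice. The points line up with the score most closely for Slc25a37 (r = 0.97) and not for Alas1 (r = -0.02), and for Ppox the null points all lie above the wild-type points.

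When the erythroid score entered the limma fit as a covariate, 1 of the 9 genes, Ppox, was higher and 0 were lower at an unadjusted p under 0.05. In the same fit 5.14% of all genes were higher and 1.17% lower at that threshold, so a count of 1 in 9 is near the background and is no result about these genes. The Ppox change was 0.42 (SE 0.133, 95% interval 0.13 to 0.72), with an adjusted limma p of 0.691. The changes of Alas2, Cpox and Slc25a37 were 0.05, 0.03 and 0.11 in that fit, those of Alad and Uros 0.13 and 0.19, and those of Urod and Fech -0.03 and -0.01, all with adjusted limma p-values of at least 0.868. For Alas1 the value was 0.12 (SE 0.349). The score itself differed between genotypes, so the fit separates genotype and score only in part.

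The 9 genes were also compared with each other over the 10 mice, in 36 pairs adjusted together. Among the 8 genes other than Alas1, Pearson r ran from 0.55 (Alas2 with Ppox) to 0.95 (Urod with Fech) with a median of 0.87, and 24 of the 28 pairs had an adjusted permutation p under 0.05 (18 by Spearman). Urod with Fech had r = 0.95 (permutation p = 4e-05, adjusted 0.00081) and rho = 0.90 (p = 0.00079, adjusted 0.00711), with r = 0.88 without the 2 libraries farthest from the median of Urod. Alas1 correlated with none of the other 8 at an adjusted p under 0.05. Its lowest value was with Alas2, at r = -0.47 (permutation p = 0.168, adjusted 0.208) and rho = -0.49 (p = 0.153, adjusted 0.197), with r = -0.43 without null replicates 1 and 5. After genotype means were subtracted, the median r among the 8 genes was 0.74, and pairs with Ppox were the weakest, down to -0.10 with Alas2. TPM values of a library share its total, and these correlations are over mice of both genotypes.

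As a description, genes were ranked by their Pearson correlation with Alas1 and with Alas2 over the 10 libraries, among 10332 others with a mean of at least 5 TPM. Nearest to Alas2 were Hba-a1 (r = 0.99), an alpha globin, then Dnajb2 (0.97), Bpgm (0.96), the enzyme that makes bisphosphoglycerate in red cells, Mkrn1 (0.96) and Ube2o (0.96), a ubiquitin ligase that clears proteins from maturing red cells. Fech ranked 24, Urod 36, Uros 57 and Alad 69 in that list, against 310 for Cpox and 482 for Ppox. Among the 5 nearest to Alas1 were Tmx4 (r = 0.97), Tmem170b (0.97), Cldn15 (0.97) and Nqo2 (0.97), at means of 25.4, 10.4, 30.3 and 19.9 TPM. None of the erythroid markers was among the 5, and Alas2 ranked 10134 of 10332 by likeness to Alas1.

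Other genes of heme handling were read from lists drawn up from textbook knowledge, but with earlier results of these data known. In limma 0 of their genes passed an adjusted p under 0.05. Of 12 tested genes of heme transport and trafficking, 6 were higher and 1 lower at an unadjusted p under 0.05, and the median change was 0.27. Over all genes tested, 4.28% were higher and 7.3% lower at that threshold, and 0.881% had every null mouse above every wild-type mouse. The 6 were Abcb10, a mitochondrial transporter that stabilises Slc25a37 (53.4 ± 10.2 TPM in the controls against 76.0 ± 5.03 TPM, SD, n = 5, log2 change 0.52, genotypes not overlapping), Slc25a38, the mitochondrial glycine carrier (0.44), Fam210b (0.40), Abcb6 (0.35), Tmem14c, needed for porphyrinogen entry into mitochondria (0.27), and Slc48a1, a heme transporter (0.27). The lower gene was Pgrmc1, a heme-binding membrane protein (-0.21), and the exporter Flvcr1 was at 9.36 ± 1.79 and 9.11 ± 1.48 TPM (SD, n = 5, log2 change -0.03).

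Among 12 tested regulators, 6 were higher and 0 lower at an unadjusted p under 0.05, with a median change of 0.22. The shares over all genes tested were 4.28% higher and 7.3% lower. The higher regulators were the erythroid factors Klf1 (0.98), Tal1 (0.59), Gata1 (0.55), Zfpm1 (0.51) and Nfe2 (0.40), and the heme-sensing kinase Eif2ak1 (0.35). Of these, only Tal1 and Gata1 had genotypes that did not overlap, as had 0.881% of all genes in that direction. Klf1 was spread widely among null mice, from 29.8 to 121 TPM, against 17.3 to 50.01 TPM in wild-type mice. The repressor Bach1 and the iron regulatory proteins Aco1 and Ireb2 differed by 0.09, 0.05 and -0.11, with adjusted limma p-values of at least 0.814, and Clpx, whose protease acts on the first-step enzyme, by -0.02. Of 4 genes of heme breakdown, Blvrb, biliverdin reductase B, was higher without overlap (330 ± 44.7 and 450.2 ± 66.1 TPM, SD, n = 5, log2 change 0.45, adjusted p = 0.291 in limma). The heme oxygenases Hmox1 and Hmox2 differed by 0.25 and -0.12, with adjusted limma p-values of 0.813 and 0.732.

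**Figure D5:**
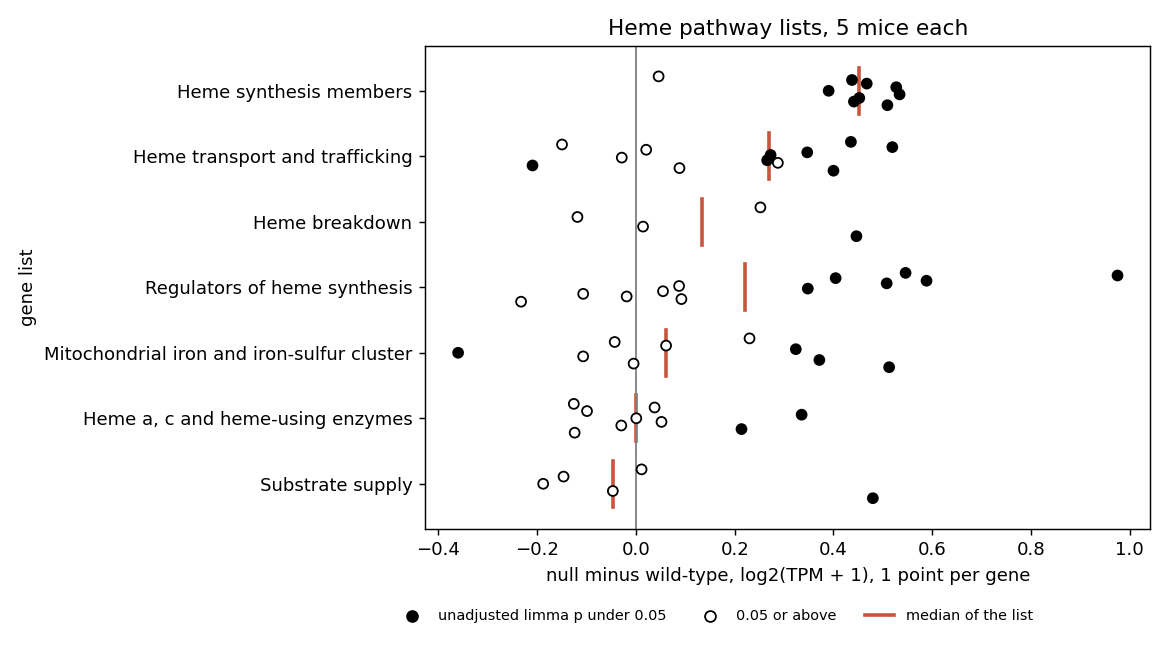
Change of each tested gene (null minus wild-type, log2(TPM + 1)) in the 9 heme synthesis genes and in 6 lists of related genes, filled where the unadjusted limma p is under 0.05, with the list median as a red line. The heme synthesis genes lie between 0.39 and 0.53 except Alas1 at 0.05, and the other lists spread across 0.

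Of 9 tested genes of mitochondrial iron and iron-sulfur clusters, 3 were higher at an unadjusted p under 0.05 in limma, namely Iba57 (0.51), Isca1 (0.37) and Glrx5 (0.32), and 1 was lower, the ferredoxin Fdx1 (-0.36), with a median change of 0.06. Among 9 genes that modify or use heme, 2 were higher at that threshold, Cat, the heme enzyme catalase (0.34), and Cyb5a, cytochrome b5 (0.21), and the median change was 0.00. The heme enzyme of neutrophil granules, Mpo, was the most abundant of them at 936 ± 320 TPM in the controls against 919 ± 286 TPM (SD, n = 5). Among 5 genes of substrate supply only the plasma membrane glycine transporter Slc6a9 was higher at that threshold (0.48, adjusted p = 0.367 in limma). Only Iba57 and Cyb5a of these lists had genotypes that did not overlap, against 0.881% of all genes with every null mouse higher. Over all genes 4.28% were higher and 7.3% lower at the same threshold. The counts of these short lists were not tested against those shares.

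Markers of other cell types were read in the same way, and 0 of them passed adjustment. At an unadjusted limma p under 0.05, 7 of 8 osteoblast and osteocyte markers, 5 of 5 osteoclast markers and 6 of 7 cartilage markers were lower in null mice, with median changes of -0.88, -1.15 and -0.86. In the same comparison 4 of 4 megakaryocyte markers were higher (median 0.43), and 0 of 7 neutrophil and 0 of 7 macrophage markers reached that threshold (medians -0.07 and 0.08). Of 4 B lineage markers 2 were lower at it (median -0.39). Over all genes 7.3% were lower and 4.28% higher at that threshold with TPM as deposited, and these shares moved with the scaling. The summed osteoblast and osteocyte markers ran from 3524 to 7961 TPM in wild-type and from 1861 to 3929 TPM in null libraries, none of the 8 being at 0 in all libraries. The part of these markers in the differences of the heme synthesis genes was not tested.

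Transcript composition was read from the same table. Protein-coding transcripts held 49.3% ± 5.32 of the Alas1 TPM in wild-type and 49.9% ± 2.47 in null mice (SD, n = 5, exact permutation p = 0.849). The most abundant Alas1 transcript, ENSMUST00000134053, is annotated as processed and not coding and held 42.7% to 49.6%. For Alas2 the coding share was 76.4% ± 10.5 and 81.4% ± 2.28 (SD, n = 5, exact permutation p = 0.373), and the lowest single share was 59.6%. For Fech it was 71.5% ± 7.47 and 79.1% ± 5.84 (SD, n = 5, exact permutation p = 0.103). With coding transcripts alone, the changes of Alas2 and Fech were 0.54 and 0.59. Exons of Alas1, Alas2, Cpox, Ppox and Slc25a37 overlap exons of genes on the opposite strand. The largest overlap was 791 of the 4515 exon bases of Ppox, shared with B4galt3. Whether the quantification used strand is not given in the sources used here, so reads in these stretches cannot be assigned with certainty.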

How the data were processed

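Values are TPM per Ensembl mouse transcript, deposited by the authors in a single table with a column per mouse, each summing to 1000000. The submitters' processing notes name kallisto and DESeq2, without versions, and the human build GRCh38, although the table lists mouse transcripts. The index and strand setting are not given in the sources used here. Version numbers were dropped, 115440 of 116912 transcripts matched GENCODE M21 (GRCm38), and TPM were summed per gene. The unmatched ones held 0.275% to 0.356% of the TPM. Being relative to a fixed total, TPM fall when other transcripts rise, and no counting error can be given.

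Genes averaging 1 TPM or more were compared on log2(TPM + 1), which understates changes of low genes. The test was limma (version 3.58.1, moderated with an intensity trend, under R 4.3.3), with Benjamini-Hochberg adjustment over all genes and a threshold of 0.05. Exact permutation tests, correlations (100000 permutations) and figures used Python 3.11.15, numpy 2.4.6, scipy 1.17.1 and matplotlib 3.10.9. The fit was tested on simulated data.

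The genes and lists were chosen with earlier results of these data known. All 9 genes are named, and the naming rule takes the 5 genes nearest to Alas1 and to Alas2. A few genes under the rule or in the marker lists are not reported here by name. List genes are named at an unadjusted p under 0.05, and other genes of the lists that are named (Slc25a28, Flvcr1, Bach1, Aco1, Ireb2, Clpx, Hmox1, Hmox2) were chosen after their values were seen. The alternatives changed the pseudocount, filter, scaling, covariate, block, trend, transcripts and libraries.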

Additional observations from a re-analysis of the deposited data

Results flagged for a closer look

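Slc25a37 in Mir324-null replicate 4 was at 301 TPM, apart from the other 4 null mice, of which the nearest was at 257 TPM. The gap was 84.8% of the range of the group, above the critical share for 5 samples, and it was the only such value in 20 groups examined (the 9 genes and the ratio of Alas2 to Alas1 in each genotype). Chance flags about 1 in 20 groups. The genotypes of Slc25a37 do not overlap with or without this mouse.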

How the results depend on the processing

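The number of genes called at an adjusted p under 0.05 in limma was 0, and 0 to 1 when single mice were left out (1 without wild-type replicate 3 or 4 or Mir324-null replicate 1). None of the 9 genes was called under any of the 21 alternatives. Of the 9 genes, 8 were higher at an unadjusted p under 0.05, 7 to 8 when single mice were left out, and 1 with the erythroid score as a covariate. In that fit Urod was at -0.028 and Fech at -0.0094. The estimate of Alas1 ran from -0.089 to 0.22 when single mice were left out, and was below 0 without wild-type replicate 4 (-0.014), Mir324-null replicate 1 (-0.089) or replicate 2 (-0.078). The other 8 genes had estimates above 0 under all alternatives except for Urod and Fech with the covariate. Their adjusted p was never below 0.0867. The cause of these shifts was not tested.

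Over all genes, 592 were higher and 1011 lower at an unadjusted p under 0.05. These were 1218 and 578 after rescaling without haemoglobin genes, and 711 and 162 with the covariate. The lower genes numbered 620 without wild-type replicate 1, and 626 and 668 without Mir324-null replicates 1 and 5.

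Same-numbered mice of the genotypes did not deviate together: the correlation of their deviations ran from -0.14 to 0.06, and 0 of 5 numbers matched best with their own. With the number as a replicate block, 0 genes were called and 8 of the 9 genes had an unadjusted p under 0.05, and the sign-flip permutation test of the Alas2 to Alas1 ratio over pairs gave a difference of 0.39 and did not pass (smallest possible p 0.0625). The ratio was also computed from coding transcripts only, an alternative chosen after seeing the data. In the 14 alternatives it lay between 0.16 and 0.60, with exact permutation p-values of 0.222 to 0.675.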
